A study of Mus musculus with 28 samples.

Results

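The interferon regulatory factors (IRFs) were followed in mouse liver as 8 genes, Irf1, Irf2, Irf3, Irf4, Irf5, Irf7, Irf8 and Irf9, taken by symbol out of 33924 gene rows measured in single cells and 33856 measured in cell pairs. Counts were unique molecular identifiers (UMIs), each standing for 1 captured mRNA molecule read at its 3' end by MARS-seq, a plate-based single-cell method, and levels are given as CPM, UMIs per 1000000 gene UMIs of a class or layer. Hepatocyte-CD31+ pairs, a hepatocyte sorted while still attached to a cell carrying the endothelial surface protein CD31, came from 3 male C57BL/6 mice of 6 and 7 weeks (17 libraries). Single non-parenchymal cells came from 2 male C57BL/6 mice of 3 and 4 months (11 libraries). Every animal had a short fast and ketamine and xylazine anesthesia, and no other treatment and no genetic change is named in the labels. The comparisons run between cell classes and between the ends of the liver lobule, from the central vein to the portal vein.

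IRFs are transcription factors that share a DNA-binding domain for GAAA repeats in the promoters of interferon and interferon-stimulated genes. IRF3, IRF5 and IRF7 lie downstream of nucleic acid and Toll-like receptors, IRF9 is the DNA-binding part of the complex that answers type I interferon, and IRF1 and IRF2 act on overlapping sites as activator and antagonist. IRF4 and IRF8 are the lineage factors of the family, which pair with PU.1 or Spi-B in B cells, dendritic cells and other myeloid cells. In the liver, blood from the gut enters at the portal end of the lobule and meets Kupffer cells, the resident macrophages of the sinusoid.

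RefSeq promoter windows on GRCm38.p6, from 250 bases before to 50 after a gene start, matched 8 of 8 members with 11 windows. Both strands were searched for GAAA followed by any NN and a second GAAA, the core of the interferon-stimulated response element (ISRE) that IRFs bind, and for TTCNNNGAA, the STAT-binding GAS element. Among 32851 promoters of the same length, 3.44% held the first and 8.30% the second. Of the 11 windows of the members, 1 held the first and 3 the second. The 3 windows with a match are shown because they carry the letters that the family and its STAT partners read, with the matches in capitals and the 250 bases before the start written 5' to 3'. All lie on the plus strand, Irf8 at chr8:120736108-120736357, Irf1 at chr11:53769764-53770013 and Irf2 at chr8:46739495-46739744.
Irf8: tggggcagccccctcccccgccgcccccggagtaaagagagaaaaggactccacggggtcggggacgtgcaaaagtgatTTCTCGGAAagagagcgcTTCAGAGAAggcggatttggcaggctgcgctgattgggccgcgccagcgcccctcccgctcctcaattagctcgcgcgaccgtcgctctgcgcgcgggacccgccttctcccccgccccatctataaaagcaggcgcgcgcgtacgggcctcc
Irf1: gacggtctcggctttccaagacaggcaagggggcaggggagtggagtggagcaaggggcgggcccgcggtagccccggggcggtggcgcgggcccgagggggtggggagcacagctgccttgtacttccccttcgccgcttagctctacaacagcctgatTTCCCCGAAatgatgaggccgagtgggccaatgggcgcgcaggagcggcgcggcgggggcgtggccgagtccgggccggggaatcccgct
Irf2: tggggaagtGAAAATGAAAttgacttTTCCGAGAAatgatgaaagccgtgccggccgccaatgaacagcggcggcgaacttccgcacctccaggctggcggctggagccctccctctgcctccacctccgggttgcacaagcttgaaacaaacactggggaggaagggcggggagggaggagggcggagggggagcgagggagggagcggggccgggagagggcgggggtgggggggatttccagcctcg
In Irf8 the capitals are a pair of GAS matches, TTCTCGGAA and TTCAGAGAA, from positions -171 and -153, counted from the gene start. Irf1 held the GAS match TTCCCCGAA from position -90. Irf2 held the ISRE core GAAAATGAAA from position -241 and the GAS match TTCCGAGAA from position -224. The windows of Irf3, Irf4, Irf5, Irf7 and Irf9 and the second windows of Irf1 and Irf8 held neither, which says only that these letters are not in them. A match is a description of the letters and was set against no binding data.

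Single cells with at least 300 gene UMIs numbered 2692, with a median of 710 UMIs, and formed 9 named classes and 20 unnamed cells in clusters built without the 8 members. Endothelial-like cells (854), T-like (638), Kupffer-like (294), B-like (283), NK-like (251), conventional dendritic-like (148), plasmacytoid dendritic-like (111), hepatocyte-like (63) and neutrophil-like cells (30) were named from marker genes. The conventional dendritic-like cluster had 8 of 10 dendritic markers at least 2-fold above other cells, and also 7 of 11 markers of monocytes and macrophages. Markers of another class reached 2-fold in other clusters too, with 9 of 10 stellate cell markers in endothelial-like, 8 of 12 T cell markers in NK-like, 5 of 11 monocyte and macrophage markers in Kupffer-like, 4 of 10 conventional dendritic markers in plasmacytoid dendritic-like, 4 of 7 plasma cell markers in B-like and 5 of 10 hepatocyte markers in neutrophil-like cells. The part of such cells in the values of a class was not tested. Only 41154 UMIs lay in hepatocyte-like and 13985 in neutrophil-like cells, where 1 UMI weighs heavily. No source ties a well to a library or mouse, so each table was 1 sample: no value below has a replicate error or a test, and intervals, at 95%, cover counting error only.

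Irf8, Irf7, Irf5 and Irf4 each reached 2-fold over all other single cells in at least 1 class, and Irf1, Irf2, Irf3 and Irf9 did so in none. All 8 genes passed the minimum of 30 UMIs, all had UMIs in at least 8 of the 9 classes, and a gene counted as higher in a class at 2-fold. Plasmacytoid dendritic-like cells passed with Irf7 and Irf8 (11.3% of 9476 genes passed there), Kupffer-like cells with Irf5 and Irf7 (9.77% of genes) and conventional dendritic-like cells with Irf5 and Irf8 (7.12% of genes). B-like cells passed with Irf4 (7.06% of genes). None passed in endothelial-like (17.8%), T-like (10.4%), NK-like (7.77%), hepatocyte-like (11.5%) or neutrophil-like cells (15.5%).

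**Figure D1:**
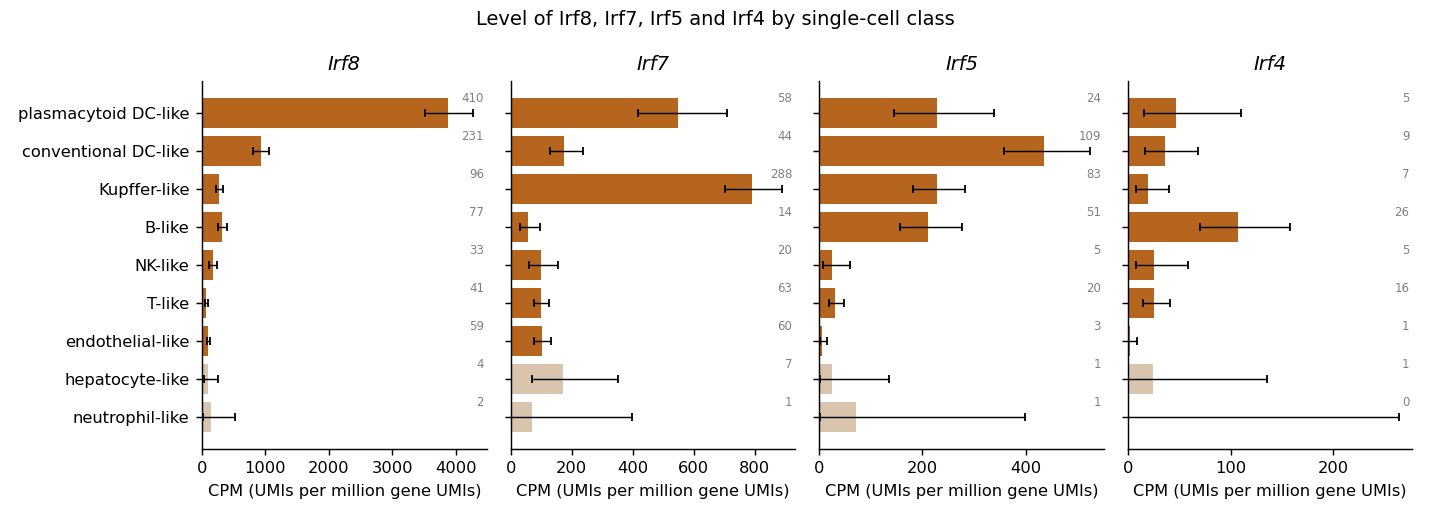
Level of Irf8, Irf7, Irf5 and Irf4 in CPM (horizontal axes, 1 scale per gene) in 9 single-cell classes; bars are levels, whiskers exact Poisson 95% intervals, grey numbers the UMIs behind each bar, and pale bars the 2 shallow classes. Irf8 stands at 3884 in plasmacytoid dendritic-like cells, Irf7 at 792 in Kupffer-like cells, Irf5 at 436 in conventional dendritic-like cells and Irf4 at 107 in B-like cells.

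Irf8, which is needed for Xcr1+ dendritic cells and monocytes to form, had 3884 CPM in plasmacytoid dendritic-like cells (interval 3517 to 4279, 410 UMIs). That was a log2 ratio of 4.04 (3.85 to 4.23) over all other single cells, which had 236. Next came conventional dendritic-like cells with 923 (808 to 1050), B-like cells with 318 (251 to 397), Kupffer-like cells with 264 (214 to 322) and NK-like cells with 166 (115 to 234). Endothelial-like cells had 100 (76.2 to 129) and T-like cells 64.6 (46.3 to 87.6). The upper 2 classes stood clear of each other and of B-like cells, and from B-like cells downward each interval overlapped that of the next class in order.

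A UMI of Irf8 was found in 82.9% of plasmacytoid dendritic-like cells (74.6 to 89.4) and in 5.33% of T-like cells (3.72 to 7.37), at median depths of 781 and 831 UMIs. With each cell thinned to 300 UMIs the shares were 64.0% and 1.57%. Of the 100 CPM of Irf8 in endothelial-like cells, RNA of plasmacytoid dendritic cells could bring 7.00 and RNA of conventional dendritic-like cells 28.4, judged by 5 and 6 of their markers in the same cells. In T-like cells, which had 64.6, the same RNA could bring 48.0 and 21.4. For NK-like cells, which had 166, these values were 14.4 and 77.3. Whether the Irf8 of these classes is their own was not tested. Such estimates can overshoot. For Irf5, conventional dendritic-like RNA gave 13.4 in endothelial-like cells, which had 5.09, and 36.5 in NK-like cells, which had 25.2. In the lower and upper ranges of well numbers that the single-cell table holds, Irf8 had 4023 and 3760 CPM in plasmacytoid dendritic-like cells. The low classes differed more between these ranges, with 47.8 and 128 in T-like cells and 105 and 236 in NK-like cells.

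Inside the conventional dendritic-like cluster, cells were divided after the values had been seen by the marker genes of the main dendritic lineages. The 41 cells with Xcr1 or Clec9a, marking the lineage that presents antigen to CD8 T cells, had 1867 CPM of Irf8 (1602 to 2164), against 571 (366 to 850) in 23 cells with Cd209a or Clec10a, markers of the other lineage. The 82 cells with none of these 4 genes had 281 (191 to 399), with Lyz2, a lysozyme of macrophages and monocytes, at 12102 CPM, against 530 in the Xcr1 or Clec9a cells. Median depths were 2174 UMIs in the 41 cells, 1391 in the 23 and 1177 in the 82. A shallow cell can lack these 4 genes for want of depth. Irf8 thus lay highest in the Xcr1 or Clec9a cells, whose interval overlapped neither of the others, while the other 2 intervals overlapped.

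Other members were compared between the same cells. Irf7 had 20 UMIs in the 41 cells (212 CPM, 130 to 328) and 1 UMI in the 23 (23.8, 0.603 to 133). Irf5 was lower in the 41, at 414 (294 to 566) against 714 (482 to 1020), a log2 ratio of -0.79 (-1.51 to -0.05). Irf1 was also lower in the 41, at 149 (81.2 to 249) against 357 (200 to 589), and its log2 ratio was -1.27 (-2.43 to -0.11). Its UMIs lay in only 8 of the 41 cells and 5 of the 23. These intervals leave out differences between cells and can be too narrow. Irf4, which the Cd209a lineage uses, had 0 UMIs in the 41 cells and 4 in the 23. Irf2, Irf3 and Irf9 had log2 ratios of 0.77, 0.42 and 0.42 whose intervals all included 0.

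Irf4, which drives the step from B cell to plasma cell, had 107 CPM in B-like cells (70.2 to 157, 26 UMIs), against 19.8 in all other single cells, a log2 ratio of 2.44 (1.68 to 3.17). Plasmacytoid dendritic-like cells had 47.4 (15.4 to 111) and conventional dendritic-like cells 36.0 (16.4 to 68.3), and T-like and NK-like cells had 25.2 each. Kupffer-like cells had 19.3 and endothelial-like cells 1.70, from 1 UMI. Intervals of neighbouring classes overlapped all along this order. Beside Irf4, 4 of 7 plasma cell markers reached 2-fold in the B-like cluster, 1 of them among its 10 leading genes, and their part in the value was not tested. A UMI of Irf4 was found in 6.36% of B-like cells (3.81 to 9.87) and in 0.117% of endothelial-like cells (0.00296 to 0.651), at median depths of 683 and 570 UMIs.

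Irf7, the main driver of interferon-alpha genes after Toll-like receptor 7 and 9 signals, was highest in Kupffer-like cells, with 792 CPM (703 to 889, 288 UMIs) against 129 in all other single cells, a log2 ratio of 2.61 (2.37 to 2.86). Plasmacytoid dendritic-like cells, the cells best known for using it, had 549 (417 to 710), and their interval overlapped that of Kupffer-like cells. Conventional dendritic-like cells had 176 (128 to 236), followed by hepatocyte-like cells with 170 from 7 UMIs (68.4 to 350). Endothelial-like cells had 102, NK-like cells 101, T-like cells 99.2 and B-like cells 57.8, all with overlapping intervals.

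The gap between plasmacytoid and conventional dendritic-like cells was 3.12-fold for Irf7, with no overlap. A UMI of Irf7 was found in 41.8% of Kupffer-like cells (36.1 to 47.7) and in 4.24% of B-like cells (2.21 to 7.29), at median depths of 891 and 683 UMIs. After thinning to 300 UMIs a cell the shares were 18.7% and 1.77%. In Kupffer-like cells Irf7 had 828 CPM in the lower range of well numbers and 734 in the upper.

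Irf5, which carries Toll-like receptor signals to inflammatory cytokine genes in myeloid and B cells, was highest in conventional dendritic-like cells, with 436 CPM (358 to 525, 109 UMIs) against 93.0 in all other single cells, a log2 ratio of 2.23 (1.88 to 2.57). Kupffer-like cells had 228 (182 to 283), plasmacytoid dendritic-like cells 227 (146 to 338) and B-like cells 211 (157 to 277), with overlapping intervals. Of the 227 in plasmacytoid dendritic-like cells, RNA of conventional dendritic-like cells could bring 101, judged by 6 of their markers. Whether this Irf5 is their own was not tested. T-like cells had 31.5 (19.2 to 48.6), NK-like cells 25.2 (8.19 to 58.8) and endothelial-like cells 5.09 from 3 UMIs (1.05 to 14.9). Conventional dendritic-like cells stood clear of the next class, and the intervals of these 4 classes overlapped none of those of T-like, NK-like and endothelial-like cells.

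The 2-fold call of Irf5 in Kupffer-like cells lay close to the limit, at 2.07-fold, and ended when cells of at least 500 UMIs were used or when the upper range of well numbers stood alone. In B-like cells the log2 ratio of Irf5 was 0.83, with 1.28 in the lower and 0.11 in the upper range of well numbers. A UMI of Irf5 was found in 43.2% of conventional dendritic-like cells (35.1 to 51.6) and in 0.351% of endothelial-like cells (0.0725 to 1.02), at median depths of 1370 and 570 UMIs. Thinned to 300 UMIs a cell, the shares were 10.8% and 0.117%.

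**Figure D2:**
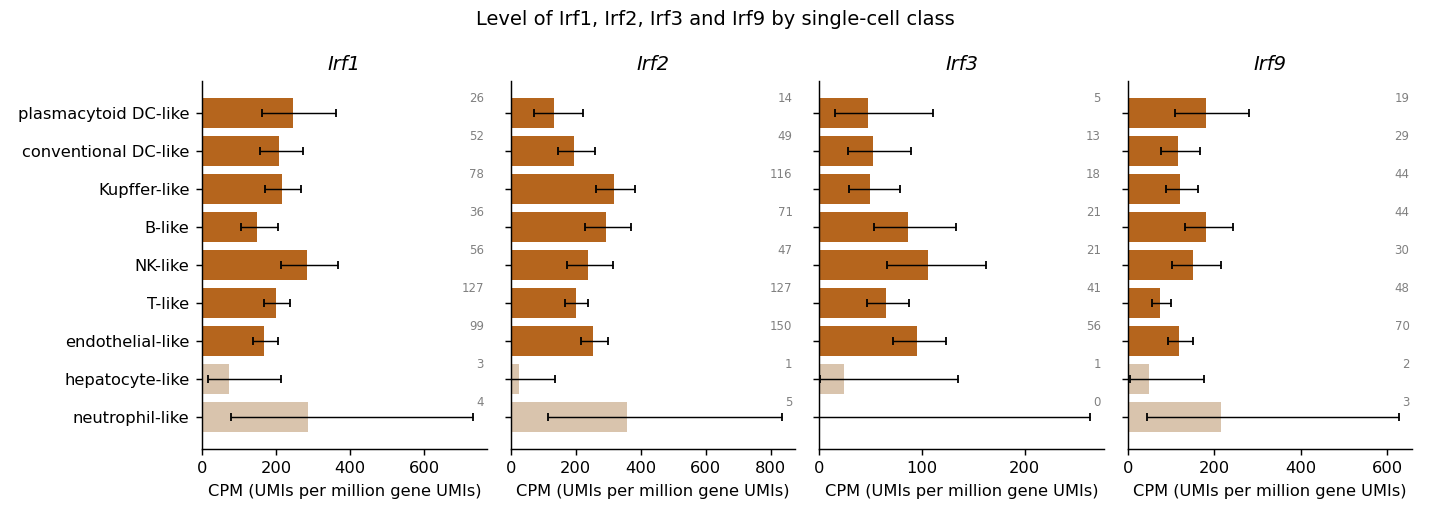
Level of Irf1, Irf2, Irf3 and Irf9 in CPM (horizontal axes, 1 scale per gene) in the same 9 classes, drawn in the same way. No class reaches 2-fold over the other cells, and in each gene the whiskers of classes next to each other in level overlap.

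Irf1, an early target of interferon-gamma, lay between 149 CPM in B-like cells (104 to 206) and 282 in NK-like cells (213 to 367) among the 7 deeper classes. NK-like cells were 1.47-fold above all other single cells, a log2 ratio of 0.56 (0.13 to 0.96). Irf2, its counterpart, lay between 133 in plasmacytoid dendritic-like cells (72.5 to 223) and 319 in Kupffer-like cells (264 to 383). Kupffer-like cells were 1.43-fold above the rest (log2 0.52, 0.21 to 0.82), and plasmacytoid dendritic-like cells had a log2 ratio of -0.87 (-1.75 to -0.11). The level of Irf1 in conventional dendritic-like cells was 78.8 in the lower and 341 in the upper range of well numbers, and what differs between these ranges was not tested.

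Irf3, the sensor-activated factor present before any interferon is made, lay between 47.4 in plasmacytoid dendritic-like cells (15.4 to 111) and 106 in NK-like cells (65.5 to 162). Endothelial-like cells had 95.0 (71.8 to 123), a log2 ratio of 0.57 over the rest (0.09 to 1.04). Irf9, the DNA-binding part of the type I interferon complex, lay between 75.6 in T-like cells (55.7 to 100) and 182 in B-like cells (132 to 244). T-like cells had a log2 ratio of -0.83 (-1.30 to -0.37) and B-like cells of 0.70 (0.20 to 1.17). In all 4 genes every class overlapped the class next to it in level, the shallow hepatocyte-like and neutrophil-like classes included.

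Likeness of pattern was measured as Pearson's r of log2(CPM + 10) over the 9 classes, among 5113 genes of at least 100 UMIs, and is a description of 9 points that share their cells, 2 of them shallow. Irf5 was most like H2-Ab1 (0.97), Cd74 (0.97) and H2-Aa (0.95), which make up the MHC class II apparatus of antigen-presenting cells. Irf7 was most like Atp6ap2 (0.93), Nars (0.91) and Grn (0.91), and Irf8 most like Rnase6 (0.94), Srsf9 (0.93) and Uvrag (0.92). For Irf2 these were Rtn3, Cdc40 and Armc1, and for Irf3 2400003C14Rik, Ccng2 and Ifi203. Among those most like Irf1 were Uchl5 and Setd8, and among those most like Irf9 were H3f3b and Chmp5. For these 10 genes r lay between 0.91 and 0.98. Between members, r was 0.76 for Irf1 with Irf2, 0.75 for Irf5 with Irf8, 0.74 for Irf1 with Irf9, and -0.16 for Irf2 with Irf7. For Irf1, Irf2 and Irf9 the highest class was neutrophil-like (4, 5 and 3 UMIs) and the lowest hepatocyte-like (3, 1 and 2 UMIs). Their r with each other thus leans on the 2 shallow classes, and r without these classes was not computed.

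Other genes of the pathway were counted in 5 lists, with genes named here after their values were seen. They took part in the clustering, so that the counts by class are a description. Of 16 measured IRF co-factors, 3 were at least 2-fold higher in plasmacytoid dendritic-like cells (Spib, Irf2bp2 and Nfkb1), and 3 in conventional dendritic-like cells (Sfpi1, which encodes PU.1, Batf3 and Bcl6). Kupffer-like cells had Sfpi1 and Batf3, and B-like cells Spib, Tcf3 and Bcl6. Spib was itself one of the markers that named the plasmacytoid class. The share of all genes that passed was 11.3% in plasmacytoid dendritic-like, 7.12% in conventional dendritic-like, 9.77% in Kupffer-like and 7.06% in B-like cells, and the counts of every list by class stand against these shares.

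Of 21 measured genes for nucleic acid and lipopolysaccharide sensing, 7 were at least 2-fold higher in Kupffer-like cells, where Irf7 was highest, among them Tlr7 and its chaperone Unc93b1. In plasmacytoid dendritic-like cells 3 were (Tlr7, Unc93b1 and Tmem173, which encodes STING), and in conventional dendritic-like cells 5. The 3 of 21 in plasmacytoid dendritic-like cells lay near the share of all genes, 11.3%. Of 25 measured genes driven through ISREs, 11 were higher in Kupffer-like, 7 in endothelial-like cells (17.8% of all genes) and 4 in plasmacytoid dendritic-like cells, Bst2 included, a marker that named that class. Their median log2 ratio over all other cells was 0.78 in Kupffer-like cells (all genes -0.38), 0.57 in endothelial-like cells (all genes -0.03) and -0.56 in plasmacytoid dendritic-like cells (all genes -0.31).

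Among 14 measured receptors, JAK kinases and STATs, 5 were higher in plasmacytoid dendritic-like cells (Ifnar1, Ifnar2, Stat2, Socs3 and Ptpn6) and 4 in Kupffer-like cells (Ifnar2, Ifngr1, Ifngr2 and Il10rb). Of 26 measured targets of interferon-gamma and IRF1, 8 were higher in conventional dendritic-like cells, Cxcl9 and Cxcl10 included, and 0 in plasmacytoid dendritic-like cells. Irf1 itself was not set apart in these cells, at 208 CPM in conventional and 246 in plasmacytoid dendritic-like cells.

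In the pairs, where nearly all RNA was of the hepatocyte, UMIs were found for 7 of 8 members and none for Irf4. The median kept pair had 10452 UMIs, and 4619 of 4621 pairs were used. Endothelial RNA made up 2.39% of pair UMIs, estimated from 20 endothelial markers by setting the CPM of each in pairs over its CPM in endothelial-like single cells (median, with quartiles of 2.18% and 2.72%). Irf4 had a UMI in 0 of 4619 pairs, which allows up to 0.0649% of pairs with a UMI (3 pairs) and sets no limit on pairs that express the gene below detection. The exact Poisson interval of its level reached 0.0648 CPM.

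Set against its level in endothelial-like cells, Irf8 had 44.9% of its 5.32 CPM in pairs accounted for by endothelial RNA, and Irf1 26.2% of its 15.3. The endothelial part was 10.4% for Irf9 (27.3 in pairs), 7.49% for Irf2 (81.0), 6.45% for Irf3 (35.1), 4.16% for Irf7 (58.5) and 1.82% for Irf5 (6.69). Adding the parts of Kupffer-like, both dendritic-like and B-like cells, from the few UMIs of their markers in pairs, brought the sum to 61.3% for Irf8 and 7.90% for Irf5, and to between 4.70% and 27.6% for the other 5. The remainder, 92.1% for Irf5 and 95.3% for Irf7, was accounted for by none of these 5 classes. The conventional dendritic part, 13.8% for Irf8 and 5.18% for Irf5, came from 6 markers. At the ends of the lobule most of their UMIs were Naaa (27 in pericentral and 34 in periportal pairs). Clec9a had 4 and 6, and Xcr1, Flt3, Cd209a and Itgax had 0. Whether this Naaa RNA was of dendritic cells was not tested. The pairs and the single cells came from other mice of another age, which these parts assume to be alike. For some genes of the pathway lists the endothelial part exceeded the whole level in pairs, so these parts are rough.

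Position in the lobule was read from landmark genes of hepatocytes, which were left out of the values, and pairs were sorted into 6 layers of equal size and into outer tertiles of 1540 pairs each. Pericentral pairs had 0 of 7 measured members at least 1.5-fold higher (9.56% of 11430 genes passed) and 2 at least 1.5-fold lower, Irf5 and Irf7 (4.76% of genes passed). All 7 ratios were below 0, with a median log2 of -0.35 against 0.11 over all genes tested. Set against that all-gene median, each would lie 0.11 lower still.

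**Figure D3:**
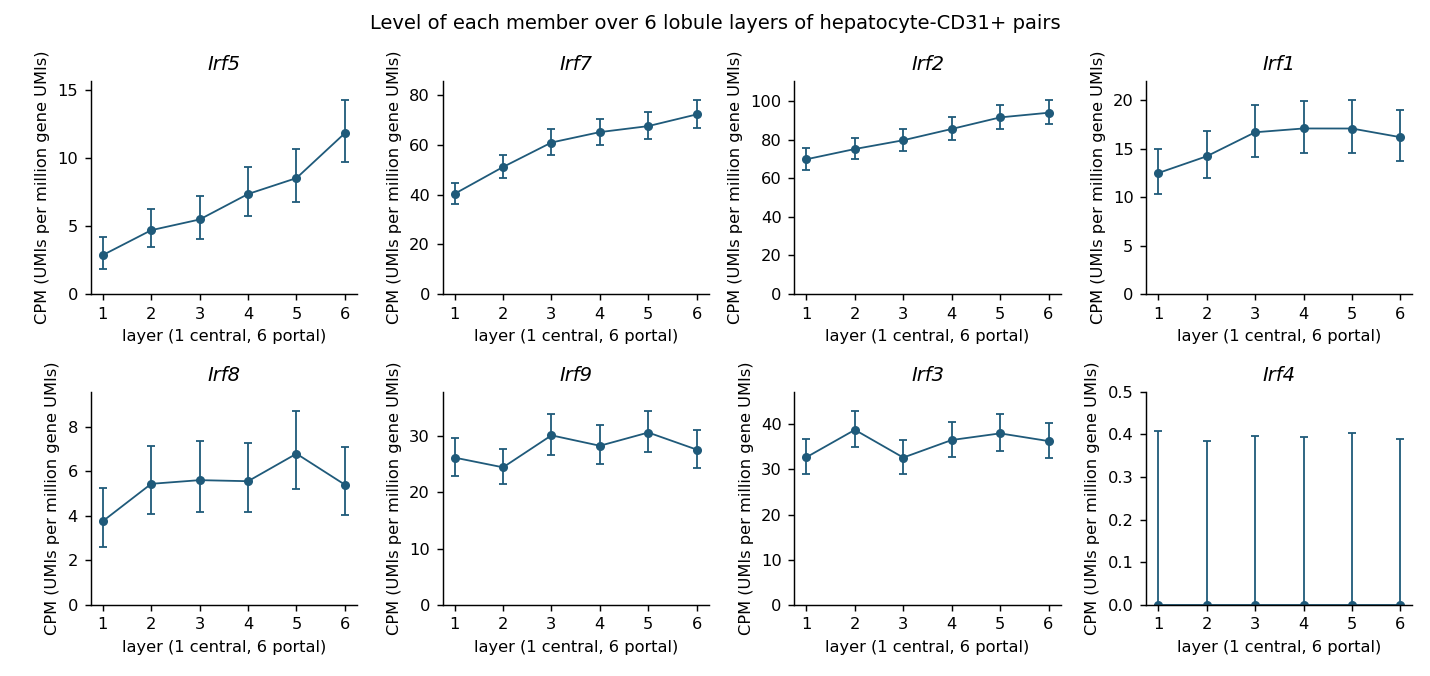
Level of each gene in CPM (vertical axes from 0, 1 scale per gene) over 6 layers of pairs from layer 1, next to the central vein, to layer 6, next to the portal vein; points are levels and whiskers exact Poisson 95% intervals. Irf5 runs between 2.87 in layer 1 and 11.8 in layer 6, Irf7 between 40.3 and 72.2 and Irf2 between 69.8 and 93.9, while Irf3 and Irf9 show no steady order and Irf4 has no UMI.

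Irf5 had 2.87, 4.70, 5.49, 7.36, 8.54 and 11.8 CPM in layers 1 to 6, higher in every layer than in the one before. The intervals of layer 1 (1.88 to 4.21) and layer 6 (9.75 to 14.2) lay far apart, while neighbouring layers overlapped. In the outer tertiles it had 3.81 CPM in pericentral pairs (71 UMIs) and 10.3 in periportal pairs (191 UMIs), a log2 ratio of -1.43 (-1.84 to -1.03), or 2.69-fold higher in periportal pairs. A UMI of Irf5 was found in 3.25% of pairs of layer 1 and in 13.8% of pairs of layer 6.

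Irf7 had 40.3, 51.1, 60.9, 65.1, 67.5 and 72.2 CPM in layers 1 to 6, again higher in each layer than in the one before. Intervals of layers 1 (36.3 to 44.7), 2 (46.7 to 55.8) and 3 (56.0 to 66.2) did not overlap, and from layer 3 onward neighbours did. It had 45.8 CPM in pericentral pairs (854 UMIs) and 70.0 in periportal pairs (1302 UMIs), a log2 ratio of -0.61 (-0.74 to -0.48). At 1.53-fold this lay just past the limit of 1.5-fold, and the call ended in 4 alternatives, with log2 ratios of -0.42 when all pairs were split at the median score, -0.52 with zones set within blocks of wells, -0.56 with landmarks without Cyp2e1 and Glul, and -0.57 without pairs holding a UMI of Sox9 or Spp1. It also ended without block 10, at -0.58.

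Irf2 had 69.8, 75.1, 79.7, 85.5, 91.5 and 93.9 CPM in layers 1 to 6, the third member with a steady order. The step between neighbours was always within their intervals, and layer 1 (64.5 to 75.5) did not overlap layer 6 (87.8 to 100). In the tertiles it had 72.5 CPM in pericentral pairs (1351 UMIs) and 92.7 in periportal pairs (1726 UMIs), a log2 ratio of -0.35 (-0.46 to -0.25), short of 1.5-fold.

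**Figure D4:**
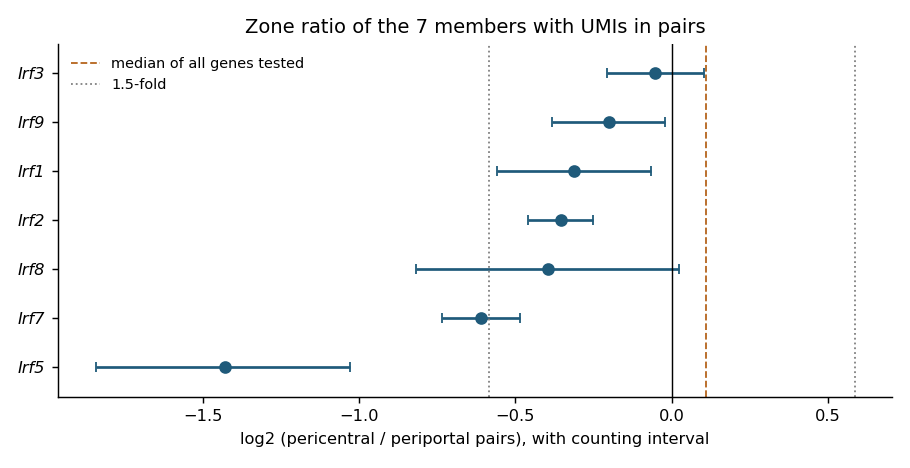
Log2 ratio of pericentral over periportal pairs (horizontal axis) for the 7 genes with UMIs in pairs; points are ratios, whiskers exact conditional binomial 95% intervals, dotted lines 1.5-fold either way and the dashed line the median of all genes tested, 0.11. Irf5 at -1.43 and Irf7 at -0.61 lie past the left dotted line, and the intervals of Irf3 and Irf8 include 0.

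The other 4 did not reach 1.5-fold. Irf1 had 13.4 CPM in pericentral and 16.6 in periportal pairs (log2 -0.31, -0.56 to -0.07), with 12.5 in layer 1 and between 14.2 and 17.1 in layers 2 to 6. Irf9 had 25.3 in pericentral and 29.1 in periportal pairs (log2 -0.20, -0.38 to -0.02). Irf8 had 4.62 in pericentral and 6.07 in periportal pairs (log2 -0.40, -0.82 to 0.02), and Irf3 had 35.8 in pericentral and 37.1 in periportal pairs (log2 -0.05, -0.21 to 0.10). Over all pairs the intervals of Irf8 and Irf3 included 0.

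Whether these smaller ratios differed from 0 depended on the setting. The interval of Irf8 lay below 0 with zones set within blocks of wells (log2 -0.55, -0.99 to -0.12), with median-of-ratios scaling (-0.51, -0.93 to -0.09) and with landmarks without Cyp2e1 and Glul (-0.45, -0.88 to -0.03). It also did without the pairs holding at least 2 Kupffer cell marker UMIs and when block 2, 4, 5, 6, 11 or 15 was left out, while thinning to 5000 UMIs a pair gave -0.04 (-0.76 to 0.68). Irf3 lay below 0 with median-of-ratios scaling alone (-0.16, -0.32 to -0.01). Irf9 included 0 with the median split (-0.11, -0.25 to 0.04), with zones within blocks, with landmarks without Cyp2e1 and Glul, without pairs holding Sox9 or Spp1 and without block 9, 13 or 41. Irf1 included 0 after thinning (-0.34, -0.78 to 0.09), without pairs holding Sox9 or Spp1 and without block 4 or 9.

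Pairs fall into 17 blocks of consecutive well numbers, which the sources do not name as plates or libraries, and zones were set again within each block. Irf7 was lower in pericentral pairs in 16 of 16 blocks with at least 10 UMIs, with block ratios between -0.92 and -0.13. Irf2 was lower in 15 of 16 and Irf5 in 13 of 14, the exception being block 14, with 9 UMIs of Irf5 in pericentral and 5 in periportal pairs. Irf9 was lower in 11 of 16, Irf1 in 10 of 15, Irf3 in 10 of 16 and Irf8 in 6 of 9.

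**Figure D5:**
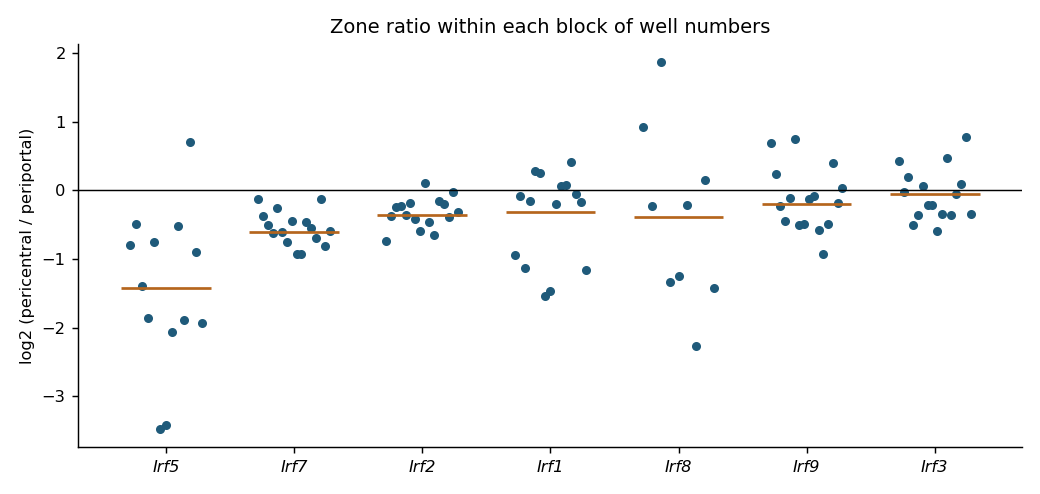
Log2 ratio of pericentral over periportal pairs (vertical axis) within each block of well numbers that held at least 10 UMIs of the gene in its outer tertiles; points are blocks in order of well number, with no error drawn, and horizontal bars the ratio over all pairs. Every Irf7 point lies below 0, and 1 block with 0 pericentral and 10 periportal UMIs of Irf5 could not be drawn.

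Markers of other cells were set beside the zone values. The 10 Kupffer cell markers summed to 204 UMIs in pericentral and 218 in periportal pairs, with none of them at 0. Fcna (89 in pericentral and 60 in periportal pairs) and C1qb (46 and 27) had more UMIs in pericentral pairs. The other 8 all had more in periportal pairs, among them Clec4f with 8 in pericentral and 22 in periportal pairs, Cd5l with 21 and 37 and C1qa with 12 and 23, the direction of Irf5 and Irf7. Leaving out the 81 pairs with at least 2 UMIs of these 10 markers, Fcna and C1qb included, gave Irf5 a log2 ratio of -1.53 and Irf7 one of -0.60. This took out more pericentral pairs (33) than periportal pairs (22). The part of Kupffer cell RNA in the 2 ratios was not tested. Of 10 conventional dendritic markers 5 were at 0, among them Xcr1, Flt3 and Itgax, and the list summed to 122 UMIs in pericentral and 142 in periportal pairs. Nearly all of these were Zbtb46 (90 in pericentral and 99 in periportal pairs) and Naaa (27 and 34), while Clec9a had 4 and 6.

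The 6 cholangiocyte markers summed to 42 UMIs in pericentral and 323 in periportal pairs, nearly all from Sox9 (27 and 201) and Spp1 (15 and 121), while Epcam had 1 UMI and Krt19, Krt7 and Cldn7 none. Without the 366 pairs holding a UMI of Sox9 or Spp1, Irf5 had a log2 ratio of -1.38. The 20 endothelial markers had a log2 ratio of -0.07 (-0.09 to -0.04).

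Exons of Irf5 overlap those of Tnpo3 on the opposite strand, and exons of Irf7 those of Phrf1, in the GENCODE M21 annotation, and whether the counting used strand is not given in the sources used here. Tnpo3 had 71.4 CPM in pericentral and 70.3 in periportal pairs (log2 0.02, -0.09 to 0.13), and Phrf1 had 13.2 in pericentral and 15.4 in periportal pairs (log2 -0.22, -0.47 to 0.03). Tnpo3 had 64.5 CPM in endothelial-like cells, where Irf5 had 5.09. Irf3 likewise overlaps Bcl2l12, Irf1 overlaps Gm17334, and Irf9 overlaps Rnf31 on its own strand, so that these values carry the same doubt.

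Zones could also be read from endothelial landmarks in 727 endothelial-like single cells, of other mice than the pairs. The 235 pericentral cells had 37 UMIs of Irf2 (234 CPM) and the 251 periportal cells 56 (345), a log2 ratio of -0.56 (-1.20 to 0.06). Irf1 had 183 in pericentral and 123 in periportal cells (log2 0.57, -0.30 to 1.47), Irf7 had 114 in pericentral and 105 in periportal cells (0.12, -0.92 to 1.16), and Irf9 had 88.4 in pericentral and 129 in periportal cells (-0.55, -1.64 to 0.49). All 4 intervals included 0, Irf3 and Irf8 had under 30 UMIs, and Irf4 and Irf5 had none. Of 2395 genes, 12.9% were at least 1.5-fold higher and 13.2% at least 1.5-fold lower there, so a ratio of that size was common at this depth.

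Genes of the pathway were set against all genes tested in pairs, of which 9.56% were at least 1.5-fold higher and 4.76% lower in pericentral pairs, with a median log2 of 0.11. Of 13 measured receptors, JAK kinases and STATs, 0 passed 1.5-fold, with a median log2 of -0.00, and the 4 furthest from 0 were Il10rb (-0.48), Socs3 (0.45), Stat2 (-0.37) and Jak1 (-0.33). Of 18 sensing genes, 1 was lower in pericentral pairs, with a median of 0.01. It was E330016A19Rik, the older symbol of the gene for the DNA sensor cGAS, with 20 UMIs in pericentral and 39 in periportal pairs, and it is named here after its values were seen. Those furthest from 0 among the better counted were Dhx58 (-0.39), Ikbkg (0.39), Irak4 (-0.37) and Traf3 (0.31). Of 10 co-factors, 0 passed, with a median of -0.13, led by Ets1 (-0.49), Bcl6 (-0.37), Nfkb1 (-0.35) and Irf2bp2 (-0.31). The estimated endothelial part of the level in pairs was 95.9% for Ets1 and 80.3% for Il10rb.

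Of 24 ISRE-driven genes, 1 was at least 1.5-fold higher and 2 lower in pericentral pairs, close to the shares of all genes, with a median of -0.11. Usp18, which removes ISG15 from proteins and dampens the interferon receptor, had 16.6 CPM in pericentral and 9.99 in periportal pairs (log2 0.73). The 2 lower were Ifi44 (-0.59) and Mx2 (-0.65), which had 28 UMIs in pericentral and 44 in periportal pairs and is named here after its values were seen. Ifit2 and Oasl2 each had a log2 of -0.57, short of 1.5-fold, with endothelial parts of 72.2% for Ifit2 and 23.5% for Oasl2. Of 22 targets of interferon-gamma and IRF1, 0 were higher and 2 lower, with a median of -0.07.

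Both were chemokines that draw CXCR3+ lymphocytes. Cxcl9 had 23.1 CPM in pericentral and 47.1 in periportal pairs (log2 -1.02), and Cxcl10 had 4.24 CPM in pericentral and 8.33 in periportal pairs (log2 -0.97). The estimated endothelial part of the level in pairs was 18.4% for Cxcl9, 33.2% for Cxcl10, 82.4% for Gbp2 and 24.1% for Gbp3. Such parts are rough, since the same estimate gave 171% for Gbp4 and 157% for Tmem173, more than the whole level. Gbp3 (-0.54) and Gbp2 (-0.50), which encode guanylate-binding proteins, came next and did not pass. Irf1, which acts on such genes, was itself 1.24-fold higher in periportal pairs, in that direction in 10 of 15 blocks. A link between Irf1 and these genes was not tested.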

How the data were processed

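The authors deposited UMI counts, 1 whole number for each gene and well, and the values show no scaling. Libraries were made by MARS-seq per the labels' protocols, with bcl2fastq 2.15.0.4 and the build mm9 per the submitters' processing notes, and neither aligner nor annotation is named there. Spike-in UMIs, 52.8% of the single-cell and 0.715% of the pair table, were left out. The library and mouse of a well are not recorded, so groups are cells and pairs within 1 sample, with no test. Such counts are 3'-end counts, so shared 3' exons can move UMIs between neighbouring genes.

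Wells of at least 300 gene UMIs (single cells, 1028 left out) or 1000 gene UMIs and 20 landmark UMIs (pairs, 2 left out) were kept. Cells were clustered with scanpy 1.11.5 (Leiden, resolution 1) without the members, and no doublet caller was run. A class took the name whose markers most often reached 2-fold in its cluster. The landmark score of a pair was its pericentral share of landmark UMIs, each side divided by its mean over pairs. Levels are UMIs per 1000000 gene UMIs (landmarks left out for zones) with exact Poisson intervals. Ratios have exact conditional binomial and shares exact binomial (Clopper-Pearson) intervals. Zone ratios in pairs and their intervals were run on simulated Poisson counts, while levels, shares and class ratios were not. That simulation held no variation between pairs or blocks, as the intervals also assume. It checks the calculation and cannot say how well the intervals cover the real counts. Limits were 30 UMIs a gene, 1.5-fold for zones and 2-fold for classes. Of each list, the 4 genes of at least 100 UMIs with the largest zone ratio were named, and for each member of at least 100 UMIs the 3 genes most like it, of which some are not reported here. Members, lists, markers and landmarks were chosen with earlier results of these data known.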

Additional observations from a re-analysis of the deposited data

Results flagged for a closer look

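The members had UMIs in 17 single cells that formed a cluster of their own, fell under the 20 cells needed for a class and entered no comparison between classes. Leading genes of the cluster were Il12b, Ccl22, Ccl17, Fscn1 and Ccr7, and it held 24324 UMIs. Irf5 had 740 CPM (UMIs per 1000000 gene UMIs) there (439 to 1170, 18 UMIs), Irf8 had 576 (315 to 966) and Irf1 had 411 (197 to 756). Irf7 had 206 (66.7 to 480) and Irf9 had 164 (44.8 to 421). Each stood above the level that 3 UMIs would give, 123 CPM, which is what drew attention to it, and Irf3 and Irf4 had 0 UMIs. The interval of Irf5 overlapped that of conventional dendritic-like cells, the class with its highest level.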

How the results depend on the processing

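No paired analysis was possible because the mouse and library of each well are unknown here. No zone ratio of a member changed sign in any alternative that gave it a value with the exception of Irf3, which was 0.07 with pairs thinned to 5000 UMIs. The count of members at least 1.5-fold lower in pericentral pairs went to 1 (Irf5 alone) with the median split, with zones within blocks of well numbers, with landmarks without Cyp2e1 and Glul and without pairs holding Sox9 or Spp1, and lay between 1 and 2 when each of 17 blocks was left out. The log2 ratio of Irf5 lay between -1.54 and -1.30 and that of Irf7 between -0.64 and -0.58 over these left-out blocks. With no filter 3291 genes passed as higher and 2823 as lower in pericentral pairs, and with 100 UMIs 708 and 280, against 1093 and 544, because more or fewer genes were tested. Median-of-ratios scaling moved all ratios by -0.11, to -1.54 for Irf5, -0.72 for Irf7 and -0.47 for Irf2.

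In single cells, 1 member passed in Kupffer-like cells (Irf7) with cells of at least 500 UMIs or in the upper range of well numbers. A limit of 3-fold left 1 each in Kupffer-like (Irf7), conventional dendritic-like (Irf5) and plasmacytoid dendritic-like cells (Irf8). With genes of at least 100 UMIs B-like cells had 0, since Irf4 has 70, and in the lower range of well numbers 2 (Irf4 and Irf5). Thinned to 300 UMIs a cell, Irf5 took the place of Irf4 in B-like cells, plasmacytoid dendritic-like cells had 3 (Irf5, Irf7 and Irf8) in place of 2, and 1 member passed in NK-like (Irf3) and 1 in neutrophil-like cells (Irf2). In the upper range 1 passed in NK-like (Irf3) and 2 in neutrophil-like cells (Irf2 and Irf9). Of 48 log2 ratios of a member in a class, 18 lay outside their interval over all cells in the upper range, 9 in the lower range and 14 after thinning. The cause of these changes was not tested. Ranges of well numbers, which used a minimum of 10 UMIs, and pairs without Sox9 or Spp1 were added after seeing the data. Depth limits Irf4 and the hepatocyte-like and neutrophil-like classes most.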
